A study of Malus domestica with 5 samples.

Results

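The candidate miRNAs of the xiong series are 172 rows of an apple (Malus domestica) small RNA count table whose names begin with xiong and end in mir and a number. They were chosen by that name alone, and are 172 of 430043 rows; 207 other rows carry apple miRNA names (mdm-miR), 269 belong to a second candidate series (novelMiR), and the rest are numbered repeats. Small RNAs were sequenced from reproductive-phase buds (3 libraries) and from juvenile-phase buds (2 libraries). The juvenile tissue label names suckers of juvenile character at the foot of the trunk, while the label of the other group names only reproductive buds, so shoot position and phase cannot be told apart. Cultivar, rootstock and age were not given in the sources used here. Gel purification kept RNAs of 19 to 24 nt in both groups. A table of small RNAs holds no protein-coding marker of buds, so the tissue label could not be checked against defining genes.

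Plant miRNAs are cut by a DICER-LIKE enzyme from a folded stretch of a longer transcript and are loaded into an ARGONAUTE protein, which they guide to matching mRNAs. Families shared across land plants are usually abundant, while many miRNAs found in a single lineage are made from young loci and are weakly expressed. Candidate miRNAs are predicted from small RNA reads and a foldable precursor, and a prediction alone assigns no target or function. The table pairs the xiong names with counts and with no sequence, target or locus, so no role is given to any of them here. Candidates are called below by the ending of their name, such as mir-486. Those endings run from mir-2 to mir-510 with gaps. No family is read from them: the candidate mir-156, for example, is listed apart from the mdm-miR156 rows and has 3 counts over all libraries.

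Most candidates were not detected in these buds. Of the 172, 122 (70.9%) had a count of 0 in all 5 libraries and 50 had at least 1 count. In comparison, 197 of the 207 mdm-miR rows and all 269 novelMiR rows had a count. A count of 0 in a library allows up to 3 counts, which is 0.0214, 0.0245 and 0.0243 CPM of the summed counts in reproductive libraries 1, 2 and 3, and 0.0308 and 0.0353 CPM in juvenile libraries 1 and 2. These limits cover counting error only. The sums behind them were 140173167, 122455352 and 123231156 counts in the reproductive libraries and 97283456 and 85087230 counts in the juvenile ones. A read that matched several rows can stand in them more than once, so they are not read numbers.

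Among the 50 detected candidates, 17 had a count in every library, 4 in 4 libraries, 9 in 3, 11 in 2 and 9 in a single library. Their counts were mostly very small. Totals over the 5 libraries were 1 count for 8 candidates, 2 to 9 for 20 candidates, 10 to 49 for 14, and 100 or more for 8, with none between 50 and 99. The median total was 0 counts for the xiong rows, 328 counts for the mdm-miR rows and 59 counts for the novelMiR rows. The plot of summed counts by rank shows the 3 series side by side.

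**Figure D1:**
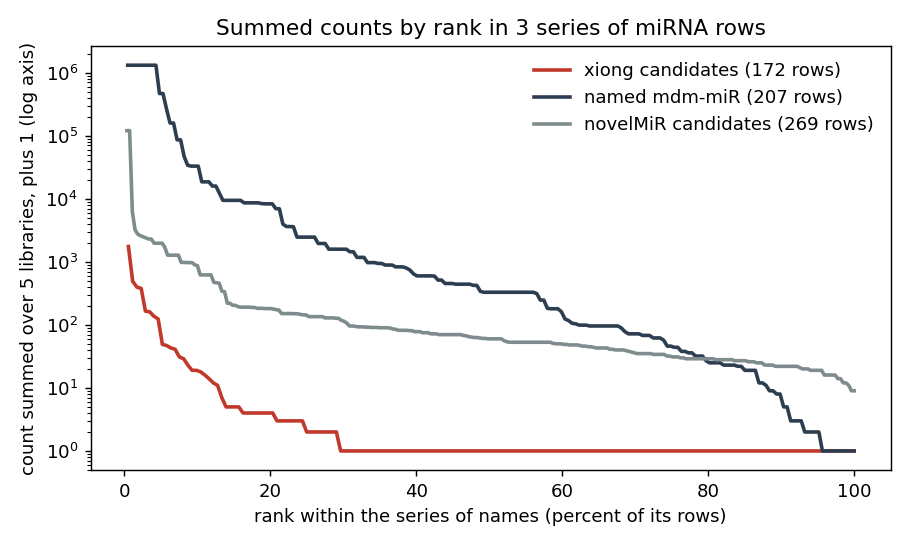
Count summed over the 5 libraries plus 1 (log axis) against rank within each series of names, as a percent of its rows, for the xiong candidates (172 rows), the named mdm-miR rows (207) and the novelMiR candidates (269). At every rank where it is above 0 the xiong curve lies below both others, and 122 of its rows are at 0.

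More candidates were detected in the reproductive libraries. A count was present for 37, 34 and 39 candidates in reproductive libraries 1, 2 and 3, against 26 and 23 candidates in juvenile libraries 1 and 2. The whole table moved the same way: a count was present for 85.9%, 85.9% and 86.2% of all features in reproductive libraries 1, 2 and 3, and for 78.2% and 74.6% in juvenile libraries 1 and 2. The reproductive sums of counts were also larger. With every library thinned to the smallest sum, a comparison added after the values were seen, the expected numbers of detected candidates were 31.2, 30.8 and 34.6 in the reproductive libraries and 25.1 and 23.0 in the juvenile ones. Thinned to the smallest library size after TMM scaling (trimmed mean of M-values, which sets library sizes so that most features do not change), they were 23.7, 23.9 and 25.0 in the reproductive libraries and 24.0 and 23.0 in the juvenile ones. The groups stayed apart after the first thinning and overlapped after the second. In the counts as deposited, 18 candidates were seen only in reproductive libraries, with at most 4 counts each over all libraries. A further 2 were seen only in juvenile libraries, mir-160 with 2 counts and mir-30 with 1, both named after their values were seen. All of these detection numbers count every row, and some of the 18 rows had identical counts in all libraries. Among the 18, mir-178 and mir-165, also named after their values were seen, each shared their counts with 3 other candidates. The share of all features seen in 1 group alone was not taken. No candidate was at 0 throughout one group with 10 or more counts in each library of the other.

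Rows with identical counts in all 5 libraries were counted once. The 50 detected candidates then formed 41 sets of counts. Sets held by several candidates numbered 5, and each of them had a total under 10 counts. No set with at least 50 counts was shared with any other row of the table: the 8 candidates at that level had counts of their own. By contrast, 129 of the 153 mdm-miR rows with at least 50 counts (84.3%) and 102 of 158 such novelMiR rows (64.6%) had the same counts as another row. Only 3 candidate sets equalled an mdm-miR row, and all 3 had totals under 10 counts, a level at which many repeats hold the same few counts. Equality of so few counts is therefore not read as shared reads. The best filled set that matched a miRNA-type row was that of mir-392, with 6, 6 and 9 counts in reproductive libraries and 3 and 4 counts in juvenile ones, the same as in 2 novelMiR rows. It is named after its values were seen.

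A single candidate held a large part of the counts. mir-486 had 310, 474 and 415 counts in reproductive libraries 1, 2 and 3, and 330 and 219 counts in juvenile libraries 1 and 2. That is 1748 of the 4004 counts of the 41 distinct candidate sets (43.7%). Next came mir-276 with 489 counts, mir-118 with 395 and mir-262 with 379, and these 4 together held 75.2% of those counts. On TMM-normalised counts, averaged over both group means, mir-486 stood at 393, and 21 of the 78 distinct mdm-miR sets with counts were more abundant. mir-262 followed at 104, with 34 of the 78 above it. mir-118 stood at 83.9 and mir-276 at 74.7, each with 38 of the 78 above. The leading candidates thus stood in the middle or upper part of the named apple miRNAs by count. RNA lengths are not given in the table, so these are counts and not levels per length.

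The comparison of reproductive with juvenile buds asks which candidates differ between the reproductive and the juvenile phase. At least 10 counts in at least 2 libraries were required for a test, and 12 of the 172 candidates met this, no pair of them with the same counts. All 12 would have passed on the reproductive libraries alone and 6 of them on the juvenile libraries alone, and 4 (mir-334, mir-275, mir-250 and mir-22) had no juvenile library at 10 counts. The filter thus favoured candidates with enough raw counts in the reproductive libraries, the group with more libraries and larger sums of counts. mir-334 and mir-22 passed it through the group where they are high, while mir-275 and mir-250 were lower there after TMM scaling. Counts over the 12 describe these candidates, not the series. The test was edgeR's quasi-likelihood F test on TMM-scaled libraries, adjusted by Benjamini-Hochberg over all 282619 tested features at a threshold of 0.05. By it, mir-334 and mir-276 were higher in reproductive buds and mir-262, mir-181, mir-486 and mir-118 were lower. Of all tested features 21.1% were called higher and 24.3% lower (45.3% in either direction), so 2 and 4 of 12 lie near the background. Of the 64 distinct mdm-miR sets tested, 16 were higher and 23 lower, and of the 110 novelMiR sets 6 were higher and 46 lower. The median log2 fold change, reproductive over juvenile, was -0.51 over the 12 candidates and 0.08 over all tested features. It was -0.15 over the 64 mdm-miR sets and -0.76 over the 110 novelMiR sets. Over the 12 candidates it was 0.59 on plain sums of counts and -0.08 with TMM taken over the miRNA rows. Over all tested features it was then 1.19 and 0.52.

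**Figure D2:**
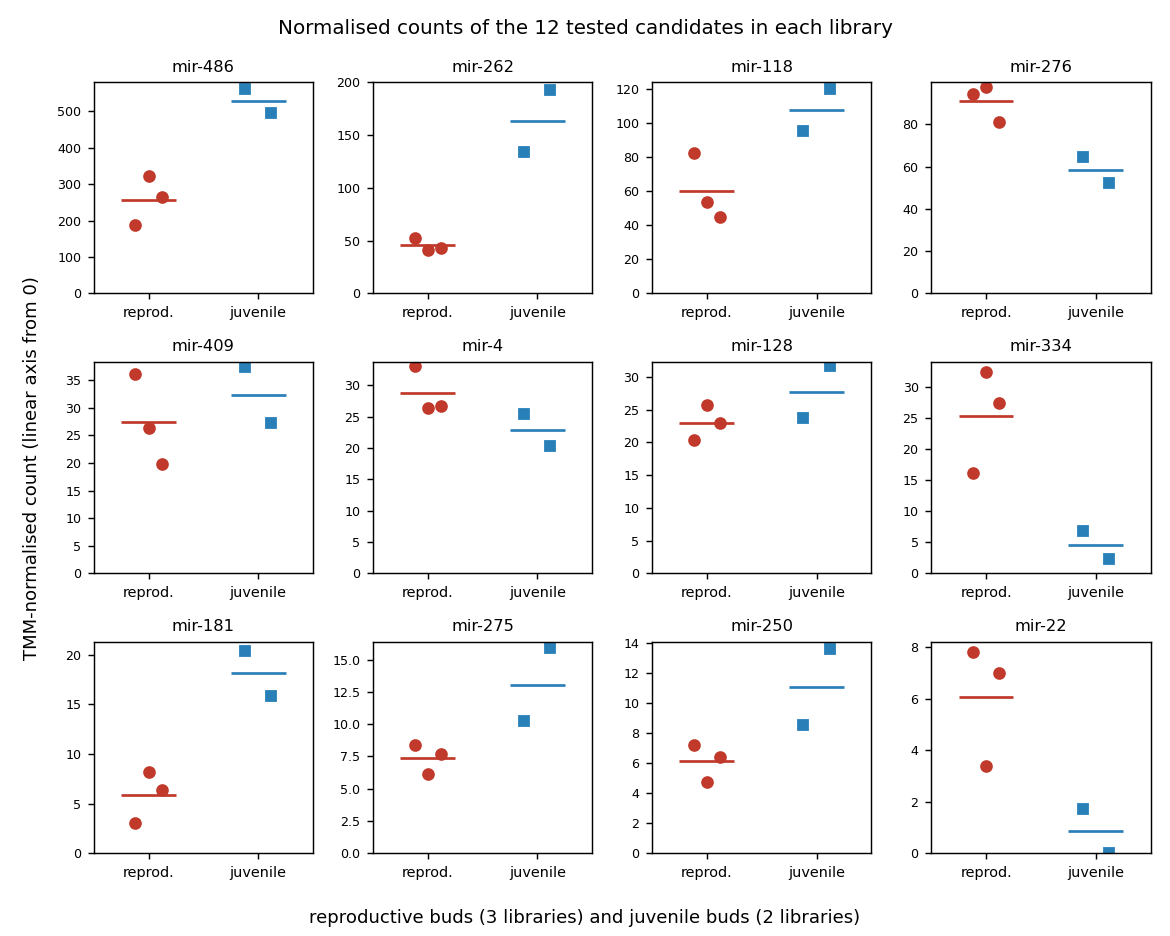
TMM-normalised count (linear axes from 0, one panel per candidate) in each of 3 reproductive (circles, left) and 2 juvenile libraries (squares, right), with lines at the group means, for the 12 tested candidates. The reproductive points lie above the juvenile ones for mir-334, mir-276, mir-4 and mir-22, and the groups overlap for mir-409 and mir-128.

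mir-334 had the largest rise among the candidates that passed. It had 27, 48 and 43 counts in reproductive libraries 1, 2 and 3, and 4 and 1 counts in juvenile libraries 1 and 2. After TMM scaling these were 25.4 ± 8.34 normalised counts in reproductive buds (SD, n = 3) and 4.53 ± 3.21 in juvenile buds (SD, n = 2). Every reproductive library was above both juvenile ones, and the fold change was 5.10 (log2 2.35, SE 0.59, edgeR adjusted p = 0.0041). Few juvenile counts stand behind it: 118 counts against 5 give a ratio of 5.16 on TMM-scaled sizes with a 95% exact counting interval of 2.15 to 16.2. This interval pools the libraries of each group and leaves out the spread between them. Leaving out juvenile library 2 ended the call (log2 fold change 1.87, edgeR adjusted p = 0.064), and leaving out juvenile library 1 gave 3.42.

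mir-276, the second most counted candidate, was moderately higher in reproductive buds. Normalised counts were 94.4, 97.6 and 80.9 in reproductive libraries 1, 2 and 3, and 64.6 and 52.1 in juvenile libraries 1 and 2. The groups did not overlap, with means of 91.0 ± 8.85 in reproductive buds (SD, n = 3) and 58.3 ± 8.85 in juvenile buds (SD, n = 2). The fold change was 1.54 (log2 0.62, SE 0.20, edgeR adjusted p = 0.018). This call ended without juvenile library 2 (log2 0.49, edgeR adjusted p = 0.14), without reproductive library 2 (0.57, edgeR adjusted p = 0.054) and in DESeq2's test (0.61, adjusted p = 0.076).

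mir-262 had the largest fall among them. Its normalised counts were 52.3, 41.4 and 42.7 in reproductive libraries 1, 2 and 3, and 134 and 193 in juvenile libraries 1 and 2. Both juvenile libraries were far above the reproductive ones, with 45.5 ± 5.97 in reproductive buds (SD, n = 3) and 163 ± 41.2 in juvenile buds (SD, n = 2). It was 3.52-fold lower in reproductive buds (log2 -1.82, SE 0.19, edgeR adjusted p = 1.1e-06). It passed under every alternative run, with log2 fold changes from -2.08 to -0.70.

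mir-486, the most counted candidate, was 2.07-fold lower in reproductive buds under TMM. It had 186, 321 and 264 normalised counts in reproductive libraries 1, 2 and 3, and 561 and 496 in juvenile libraries 1 and 2. The groups did not overlap, with reproductive library 1 lowest (log2 -1.05 ± 0.17 SE, edgeR adjusted p = 8.5e-05). The fall is tied to the scaling: on sums of counts the log2 fold change was 0.068 (edgeR adjusted p = 0.74).

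mir-181 was also lower, at a much smaller count. It had 5, 12 and 10 counts in reproductive libraries 1, 2 and 3, and 12 and 7 counts in juvenile libraries 1 and 2. Its normalised counts were 5.84 ± 2.61 in reproductive buds (SD, n = 3) and 18.1 ± 3.22 in juvenile buds (SD, n = 2), without overlap (log2 -1.66 ± 0.48 SE, edgeR adjusted p = 0.0097). The call ended without juvenile library 1 (-1.45, edgeR adjusted p = 0.12) and on sums of counts (-0.56, edgeR adjusted p = 0.28).

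mir-118 was 1.76-fold lower under TMM. It had 82.4, 53.6 and 44.6 normalised counts in reproductive libraries 1, 2 and 3, and 95.2 and 120 in juvenile libraries 1 and 2. Reproductive library 1 came close to the juvenile libraries without reaching them (log2 -0.81 ± 0.25 SE, edgeR adjusted p = 0.013). This call ended with TMM over the miRNA rows (-0.39, edgeR adjusted p = 0.13), without juvenile library 2 (-0.65, edgeR adjusted p = 0.16), and on sums of counts, where the direction turned (0.30, edgeR adjusted p = 0.25).

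The other 6 tested candidates did not pass under TMM. mir-409 had 27.4 ± 8.20 normalised counts in reproductive buds (SD, n = 3) and 32.3 ± 7.23 in juvenile buds (SD, n = 2), with overlapping groups. mir-128 had 23.0 ± 2.66 in reproductive buds and 27.8 ± 5.59 in juvenile buds, also overlapping. mir-4 had 28.8 ± 3.73 in reproductive buds and 22.9 ± 3.62 in juvenile buds, where the lowest reproductive library (26.4) was just above the highest juvenile one (25.5). A missed threshold does not show that these levels are alike.

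The last 3 tested candidates were rare, and they are named after their values were seen. mir-22 had 13, 5 and 11 counts in reproductive libraries 1, 2 and 3, and 1 and 0 counts in juvenile libraries 1 and 2. The reproductive counts were higher in all 3 libraries, and the edgeR adjusted p was 0.060. Pooled, 29 counts against 1 give a ratio of 6.34 on TMM-scaled sizes with a 95% exact counting interval of 1.05 to 259. This interval also leaves out the spread between libraries. A single repeat row had the same counts as mir-22. mir-22 met the count minimum only through the reproductive libraries, so its p-values carry that selection. On sums of counts 83.3% of all tested features were called higher, and with TMM over the miRNA rows 43.4% were. mir-22 passed on sums of counts (edgeR adjusted p = 0.0027), with TMM over the miRNA rows (edgeR adjusted p = 0.011) and without reproductive library 2 (edgeR adjusted p = 0.025). It missed the threshold with DESeq2 size factors (edgeR adjusted p = 0.061), distinct sets of counts (0.063), no count minimum (0.069) and a replicate block (0.10). Without reproductive library 1 or 3 it fell under the count minimum, and DESeq2's test gave it no adjusted p-value. Its log2 fold change was 6.01 without juvenile library 1, where the remaining juvenile library had 0 counts of it. It was 1.80 without juvenile library 2, where the remaining one had 1 count. Each of these fits rests on 1 juvenile library, so only the size of the change is given. mir-275 had 8.42, 6.10 and 7.65 normalised counts in reproductive libraries 1, 2 and 3, and 10.2 and 15.9 in juvenile libraries 1 and 2. mir-250 had 7.21, 4.75 and 6.37 in the reproductive libraries, and 8.50 and 13.6 in the juvenile ones. Groups did not overlap for mir-22, mir-275 and mir-250, but on sums of counts the direction turned for mir-275 (log2 fold change 0.34) and mir-250 (0.31), neither past the threshold. In all, 10 of the 12 candidates had groups without overlap, where 69.1% of all tested features did.

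How the libraries were scaled set the sign of several of these differences. The effective library sizes under TMM were 3.08-fold larger in reproductive than in juvenile buds, against 1.41-fold for the plain sums, and the median log2 fold change of all features moved by 1.11 between these scalings and by 0.44 with TMM over the miRNA rows. On sums of counts 6 candidates were called higher (mir-22, mir-334, mir-276, mir-4, mir-128 and mir-409) and 1 lower (mir-262), where 83.3% of all features were higher and 2.46% lower. With TMM over the miRNA rows 3 were higher (mir-22, mir-334 and mir-276) and 3 lower (mir-262, mir-181 and mir-486), where 43.4% of all features were higher and 9.65% lower. mir-334 and mir-22 entered each of these fits only through the reproductive libraries, where they are high. Under these scalings and DESeq2 size factors, mir-334 and mir-276 were called higher and mir-262 lower each time. Their log2 fold changes were 2.79, 1.06 and -1.39 with TMM over the miRNA rows, and 3.44, 1.73 and -0.70 on sums of counts.

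**Figure D3:**
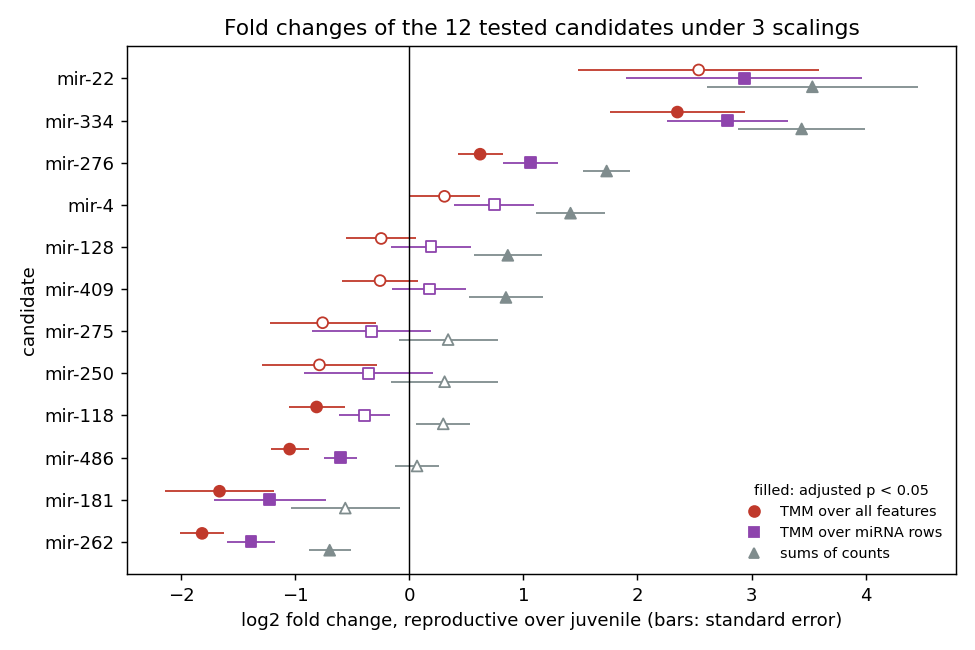
Log2 fold change, reproductive over juvenile, with its standard error for the 12 tested candidates under TMM over all features (circles), TMM over miRNA rows (squares) and sums of counts (triangles), with filled symbols for an edgeR adjusted p under 0.05. Only mir-334, mir-276 and mir-262 have a filled symbol under all 3 scalings, and mir-486 stands at -1.05 under the first and 0.068 under the last. mir-334 and mir-22 met the count minimum only through the group where they are high.

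Shares within the candidate counts of a library do not depend on any scaling. mir-486 held 31.8%, 46.7% and 44.0% of the candidate counts in reproductive libraries 1, 2 and 3, and 53.9% and 48.0% in juvenile libraries 1 and 2. mir-276 held 14.6% ± 1.36 in reproductive buds (SD, n = 3) and 5.63% ± 0.824 in juvenile buds (SD, n = 2). mir-262 held 7.34% ± 1.47 in reproductive buds (SD, n = 3) and 15.8% ± 4.05 in juvenile buds (SD, n = 2). The order of these 2 was therefore opposite in the groups: mir-276 had 1.80, 2.36 and 1.90 times the counts of mir-262 in reproductive libraries 1, 2 and 3, and 0.481 and 0.271 times in juvenile libraries 1 and 2. mir-334 held 4.02% ± 1.08 in reproductive buds (SD, n = 3) and 0.436% ± 0.307 in juvenile buds (SD, n = 2). These shares and quotients were picked after the fold changes were known, and they are given without a test.

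As a whole the candidates were a very small part of the miRNA-type counts in both phases. Of the counts of all distinct mdm-miR, xiong and novelMiR sets, they held 0.125%, 0.178% and 0.167% in reproductive libraries 1, 2 and 3, with 95% exact binomial intervals for counting error of 0.117 to 0.133, 0.167 to 0.189 and 0.156 to 0.178. In juvenile libraries 1 and 2 they held 0.150% and 0.124%, with intervals of 0.138 to 0.163 and 0.113 to 0.136. The groups overlapped, and the means of 0.157% ± 0.0280 in reproductive buds (SD, n = 3) and 0.137% ± 0.0187 in juvenile buds (SD, n = 2) lay within the spread between libraries (two-sided exact permutation p = 0.4; the 10 splits cannot give less than 0.1, so this test could not reach 0.05). The miR166 rows, with 377714, 239048 and 224602 counts in reproductive libraries 1, 2 and 3 and 244447 and 227059 in juvenile libraries 1 and 2, made up a large part of that total. Without them, a choice made after the values were seen, the share was 0.275% ± 0.0324 in reproductive buds (SD, n = 3) and 0.349% ± 0.0375 in juvenile buds (SD, n = 2), the opposite direction (two-sided exact permutation p = 0.2). Against the sum of all features instead, the share was 0.000764% ± 0.0000667 in reproductive buds (SD, n = 3) and 0.000583% ± 0.0000659 in juvenile buds (SD, n = 2), without overlap (two-sided exact permutation p = 0.1, the lowest value possible here). Most features rose on that scale: 83.3% of those tested were called higher on sums of counts. The median log2 fold change there was 1.19 over all tested features and 0.59 over the 12 tested candidates, so this rise is not particular to the candidates.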

How the data were processed

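The authors deposited 1 table of raw counts, whole numbers that were not normalised. The submitters' processing notes name Bowtie 1.1.2. How reads with several matches were counted, the genome build and the origin of the xiong names were not given in the sources used here. Columns were matched to samples by phase and replicate number. The members and lists were chosen with earlier results of these data known.

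Features that reached 10 counts in 2 or more libraries were tested with edgeR 4.0.16 in R 4.3.3 (glmQLFit and glmQLFTest, group as the only term, TMM factors on the sums of counts, which were 1.33, 1.35 and 1.42 in reproductive and 0.676 and 0.580 in juvenile libraries). The common coefficient of variation was 0.0758. Standard errors are the log2 fold change divided by the square root of F. Normalised counts are counts divided by library sizes scaled to a geometric mean of 1. Alternatives were DESeq2 1.42.0, other scalings, no count minimum, distinct sets of counts, a replicate block and leaving out each library. Shares were tested by exact permutation in scipy 1.17.1. The edgeR steps were tested on simulated data.

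Text names the 8 most abundant candidates, up to 8 called in each direction without overlap between groups, and any sharing at least 50 counts with an mdm-miR row or present in 1 group alone. Nothing in the labels ties the replicates to different trees, and the p-values therefore reflect variation among these 5 libraries that may be technical. Within groups the libraries were not identical: chi-square per feature was 1.93 to 6.63. Over the 12 tested candidates, chi-square per candidate was taken with expected shares from TMM-scaled library sizes. The values per feature used plain sums, so the 2 kinds of value are not on 1 scale. Chi-square per candidate was 1.21 between the juvenile libraries and 1.44 between reproductive libraries 2 and 3. It was 7.46 and 4.91 for reproductive library 1 against libraries 2 and 3. These values cannot tell technical from biological replicates.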

Additional observations from a re-analysis of the deposited data

How the results depend on the processing

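Under TMM, 2 candidates were higher and 4 lower in reproductive buds. The number higher was 6 on sums of counts and 1 in DESeq2's test, which gave mir-22 and mir-250 no adjusted p-value. The number lower was 1 on sums of counts. Other scalings, no count minimum and distinct sets of counts stayed within 1.5 times. Leaving out 1 library gave 0 to 2 higher and 3 to 4 lower, with 0 higher without juvenile library 2, where 9 to 12 candidates could be tested. On sums of counts the log2 fold changes turned to 0.068 for mir-486, 0.30 for mir-118, 0.31 for mir-250, 0.34 for mir-275, 0.85 for mir-409 and 0.86 for mir-128. With TMM over the miRNA rows they turned to 0.18 for mir-409 and 0.19 for mir-128, and with 1 library left out mir-409 ran from -0.50 to 0.020 (without juvenile library 1). The scaling itself moves all features, as given above; the cause of the last change was not tested. The ratio of the candidates' shares of miRNA-type counts, reproductive over juvenile, was 1.14, ran from 1.04 to 1.27 when 1 library was left out, and was 1.44 with every row counted, 1.31 against the sum of all features and 1.18 without the novelMiR series. With choices made after the values were seen, it was 1.37 without mir-486 and 0.789 without the miR166 rows. Replicate numbers 1 and 2 occur in both groups. Same-numbered libraries did not deviate together (correlations of -0.11 and -0.03). With 2 juvenile libraries, however, the deviations from their mean mirror each other, so these values cannot settle whether the numbers pair the samples. With a replicate block 2 candidates were higher and 4 lower. The share of all tested features called was taken only under TMM, sums of counts and TMM over the miRNA rows. Numbers called in the other fits therefore cannot be read against a background. An equal number can also stand for other candidates. Without reproductive library 2 the 2 called higher were mir-334 and mir-22 (edgeR adjusted p = 0.025), while mir-276 missed the threshold (edgeR adjusted p = 0.054). The 160 untested candidates had at most 1 library with 10 or more counts, which limits any statement on them.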
